A study of Homo sapiens with 16 samples.

Results

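The 10 genes described here, ZEB1, ZEB2, SNAI1, SNAI2, TWIST1, TWIST2, PRRX1, VIM, CDH2 and CDH1, are the classical regulators and markers of epithelial-mesenchymal transition (EMT), and were taken by name for their known roles, with earlier results of these data known, and not by any measured value. They are 10 of the 19962 protein-coding genes whose H3K27ac peaks were measured in the same way. In EMT, epithelial cells give up the cell-cell contacts made by E-cadherin and take on a motile, mesenchymal form. The ZEB, SNAI and TWIST families and PRRX1 encode transcription factors that drive this programme, and the ZEB and SNAI factors repress CDH1 directly. Acetylation of lysine 27 on histone H3 (H3K27ac) marks active promoters and enhancers, so that peaks around a gene report on its regulatory DNA and not on its transcript level.

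H3K27ac ChIP-seq peaks were called in MDA-MB-231 and Hs578T, 2 established triple-negative breast cancer (TNBC) lines. Both lines carried either a CRISPR control or a CRISPR knockout (KO) of Fn14 (TNFRSF12A), the receptor of the cytokine TWEAK. The KO was made with the TLCV2 vector and 2 guides, and the study's supplement calls the genotyped CRISPR cells clones, without giving how many were used per line. All cells were starved of serum for 8 h and were then left untreated or given 10 ng/ml TWEAK for 48 h, replenished after 24 h. This gave 8 groups of 2 peak lists, 16 in all, and the study's methods describe cell-line ChIP-seq replicates as biological.

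The lists held 39544 to 47197 peaks covering 64.2 to 88.9 Mb, and the read depth behind them is unknown. The median −log10 q of a list was 5.79 to 7.69 in the 4 Fn14 KO lists of MDA-MB-231 and 9.44 to 10.8 in the 4 control lists of that line. ESR1, PGR, KRT5, KRT14, PTPRC, CD3E, CDH5 and ALB had no peak at their start sites in any list, whereas KRT8, KRT18, KRT19, EPCAM and FN1 had one in all 16. ERBB2 had a weak start-site peak, of at most 3.76 fold, in 5 of 8 MDA-MB-231 lists and 7 of 8 Hs578T lists. The endothelial gene PECAM1 had a start-site peak in 1 of 8 and 5 of 8, and it reached 18.6 fold. At the start site of TNFRSF12A the highest fold enrichment was 16.2 to 22.3 in the 8 KO lists and 32.6 to 38.2 in the 8 control lists. This peak says nothing of the edited sequence or of the protein.

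For each gene, peaks were measured in the 4001 bp centred on the start site of the canonical transcript, and in the locus, meaning the GENCODE gene body extended by 50 kb on each side. The quantities were the bases under peaks (covered length) and the highest fold enrichment over input, as given by the peak caller. A peak in a locus cannot be assigned to a gene from its position alone. The windows of 5 genes also held another protein-coding gene: GTDC1 near ZEB2, RNF114 near SNAI1, HDAC9 and FERD3L near TWIST1, TRDMT1 near VIM, and CDH3 and TANGO6 near CDH1. Covered length also cannot tell more acetylated cells from more acetylation per cell.

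The start sites divided the genes into 3 sets. ZEB1, SNAI2 and VIM carried a start-site peak in 16 of 16 lists. ZEB2 did so in 15 of 16 and SNAI1 in 7 of 16, and TWIST1, TWIST2, PRRX1, CDH2 and CDH1 had none in any list. ZEB1 had the strongest start-site peaks, with a fold enrichment of 15.8 to 28.0, followed by VIM with 12.8 to 20.9, and the 2 ranges overlapped. SNAI2 reached 3.92 to 7.41, ZEB2 at most 9.81 and SNAI1 at most 4.97. The SNAI1 peak was present in 6 of the 8 Hs578T lists and in 1 MDA-MB-231 list, the second TWEAK-treated Fn14 KO list. For the 5 genes without a start-site peak, the nearest peak lay a median of 4.30 kb from the start site for CDH1, 15.6 kb for TWIST2, 26.4 kb for CDH2, 38.0 kb for TWIST1 and 40.5 kb for PRRX1. Hence both cadherin genes and 3 of the transcription factor genes were marked only at a distance from their start sites.

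**Figure D1:**
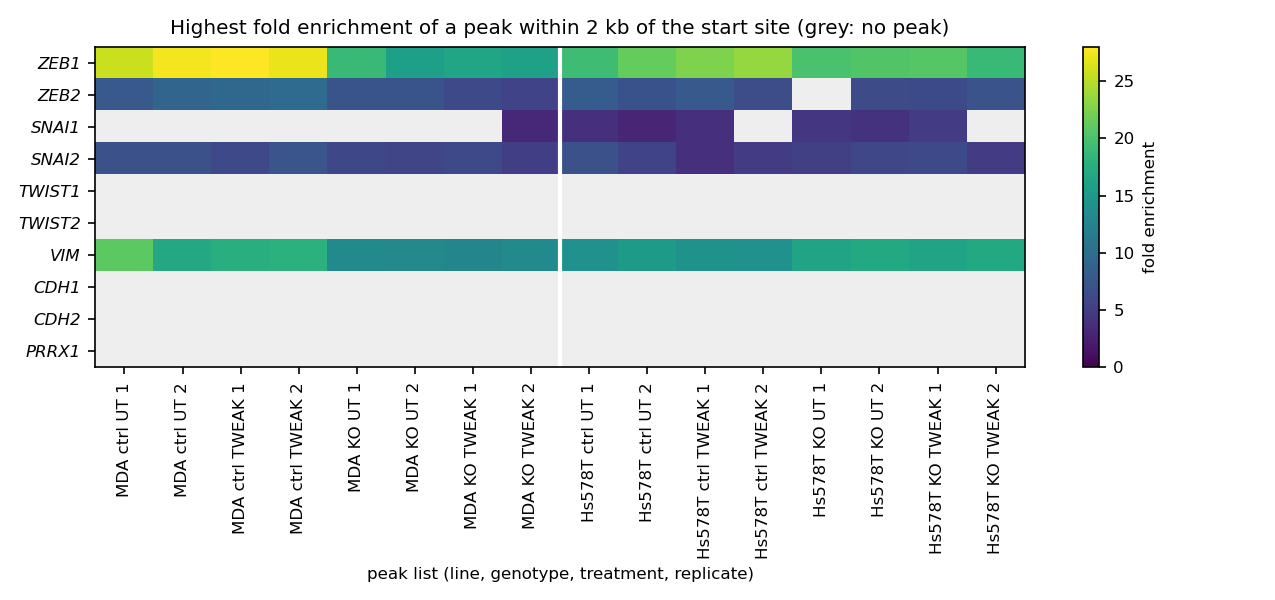
Highest fold enrichment over input of an H3K27ac peak within 2 kb of the start site, for each gene (rows) in each of the 16 peak lists (columns; ctrl, CRISPR control; UT, untreated), with grey where there was no peak. ZEB1 and VIM were above 12 in every list, SNAI2 lay between 3.92 and 7.41, and the rows of TWIST1, TWIST2, CDH1, CDH2 and PRRX1 are grey throughout.

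To ask how TWEAK altered these loci, treated and untreated control cells were compared over both lines. SNAI2, TWIST2, CDH1 and SNAI1 lost covered length and PRRX1 gained it, while ZEB1, ZEB2, TWIST1, VIM and CDH2 did not pass the test. The 5 calls among 10 genes stand beside 17.7% of the 17908 genes tested (6.73% higher, 11% lower). Adjusted p-values are from limma with Benjamini-Hochberg adjustment over all genes tested, and changes are on the log2 scale of covered length plus 500 bp. The median change was −0.05 over the 10 genes and −0.05 over all genes.

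SNAI2 encodes the zinc-finger repressor Slug and lies at chr8:48917598-48921740 (hg38, minus strand). In MDA-MB-231 control cells its locus held 7810 and 10250 bp of peaks untreated and 4269 and 3478 bp after TWEAK. In Hs578T control cells the values were 5269 and 5645 bp untreated and 1868 and 2539 bp after TWEAK. All 4 treated lists were below both untreated lists of their line. The change was −1.13 ± 0.12 (SE; adjusted p = 5.6e-05, limma), a 0.456-fold level, and it was called in MDA-MB-231 alone (−1.12, adjusted p = 0.0019, where 7.04% of genes were called) and in Hs578T alone (−1.15, adjusted p = 0.0022, 4.98%).

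The loss at SNAI2 included the start site as well as distant peaks. Covered length within 2 kb of the start site went from 3378 and 3227 bp to 2214 and 1277 bp in MDA-MB-231 control cells, and from 1406 and 2084 bp to 709 and 880 bp in Hs578T control cells. This change was −0.79 ± 0.15 (adjusted p = 0.024, limma), and SNAI2 was the only one of the 5 testable genes called at its start site, where 3.01% of 12545 genes were. It missed the threshold when 1 of 5 control lists was left out (both untreated MDA-MB-231 lists, the second treated MDA-MB-231 list, the second untreated Hs578T list and the first treated Hs578T list, adjusted p = 0.060 to 0.085), and with no gene filter (adjusted p = 0.052). In Fn14 KO cells the start site went from 3067 and 2908 bp untreated to 1786 and 2369 bp after TWEAK in MDA-MB-231, and from 2597 and 2233 bp to 2180 and 1587 bp in Hs578T. Treated lists were thus below untreated ones in KO cells of both lines as well, at −0.37 ± 0.15 (adjusted p = 0.97, limma), and a difference from control cells was not called (0.41 ± 0.22, adjusted p = 0.56). A region 22.0 kb into the direction of transcription, chr8:48898810-48900072, had a peak in every list except the 4 treated control lists, with a fold enrichment of 4.32 and 4.49 in untreated MDA-MB-231 control cells and 4.10 and 3.21 in untreated Hs578T control cells. By contrast, a peak 18.4 kb from the start site (chr8:48901449-48904605), was present in all 16 lists.

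SNAI1, which encodes the related repressor Snail, lies at chr20:49982980-49988886 (plus strand). Its locus held 8491 and 10758 bp untreated and 7163 and 6651 bp after TWEAK in MDA-MB-231 control cells, and 9889 and 9102 bp against 9070 and 8874 bp in Hs578T control cells. The treated lists were lower than both untreated lists in each line. The change was −0.26 ± 0.08 (adjusted p = 0.039, limma), and it was called in MDA-MB-231 alone (−0.44, adjusted p = 0.032) but not in Hs578T alone (−0.08, adjusted p = 0.78). The call was close to the threshold: it remained without 3 of the 16 lists in turn (the first untreated control list and both untreated Fn14 KO lists of MDA-MB-231), and without any of the other 13 the adjusted p was 0.053 to 0.13. With the gene body extended by 10 kb, the adjusted p was 0.35.

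TWIST2 encodes a basic helix-loop-helix factor closely related to TWIST1 and lies at chr2:238848032-238910534 (plus strand). Its locus held 5730 and 5587 bp untreated and 3984 and 4043 bp after TWEAK in MDA-MB-231 control cells, and 5757 and 6304 bp against 4086 and 4660 bp in Hs578T control cells. Again the treated and untreated lists did not overlap in either line, and the change was −0.44 ± 0.10 (adjusted p = 0.0083, limma). In Hs578T control cells an intronic region 21.4 kb from the start site (chr2:238868824-238870193) had peaks of 2.96 and 3.29 fold in the untreated lists and none in the treated lists. It had no peak in any MDA-MB-231 list and was present in all 4 Hs578T Fn14 KO lists.

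CDH1, the gene of E-cadherin, lies at chr16:68737292-68835537 (plus strand). In MDA-MB-231 control cells its locus held 8453 and 10382 bp untreated and 6277 and 6523 bp after TWEAK, and in Hs578T control cells 12179 and 13802 bp untreated and 10451 and 10834 bp after TWEAK. The treated lists were below the untreated lists in each line. The change was −0.40 ± 0.11 (adjusted p = 0.025, limma). It missed the threshold without any 1 of 6 control lists (the second untreated list and both treated lists of each line, adjusted p = 0.059 to 0.095), with only peaks of −log10 q of at least 2 (−0.38, adjusted p = 0.11) and with no gene filter (adjusted p = 0.054). A region overlapping an exon of CDH1, 74.1 kb into the gene (chr16:68810663-68812189), had a peak in both untreated control lists of each line, at 3.34 and 3.19 fold in MDA-MB-231 and 4.42 and 3.50 fold in Hs578T, and in none of the 4 treated control lists.

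PRRX1, a homeobox gene of mesenchymal cells, lies at chr1:170662728-170739421 (plus strand) and was the only one of the 10 genes called in the upward direction. With lists trimmed to the same number of peaks, ZEB2 was called upward too (0.29, adjusted p = 0.049, limma). The values were 1298 and 2182 bp untreated and 2759 and 3063 bp after TWEAK in MDA-MB-231 control cells, and 3674 and 3428 bp against 4977 and 4720 bp in Hs578T control cells. All treated lists were above the untreated lists of their line. The change was 0.52 ± 0.13 (adjusted p = 0.013, limma), a 1.43-fold level. Its adjusted p was 0.056 without the second treated MDA-MB-231 control list and 0.056 without the first treated Hs578T control list, and with the gene body extended by 10 kb the change was 0.26 (adjusted p = 0.20).

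**Figure D2:**
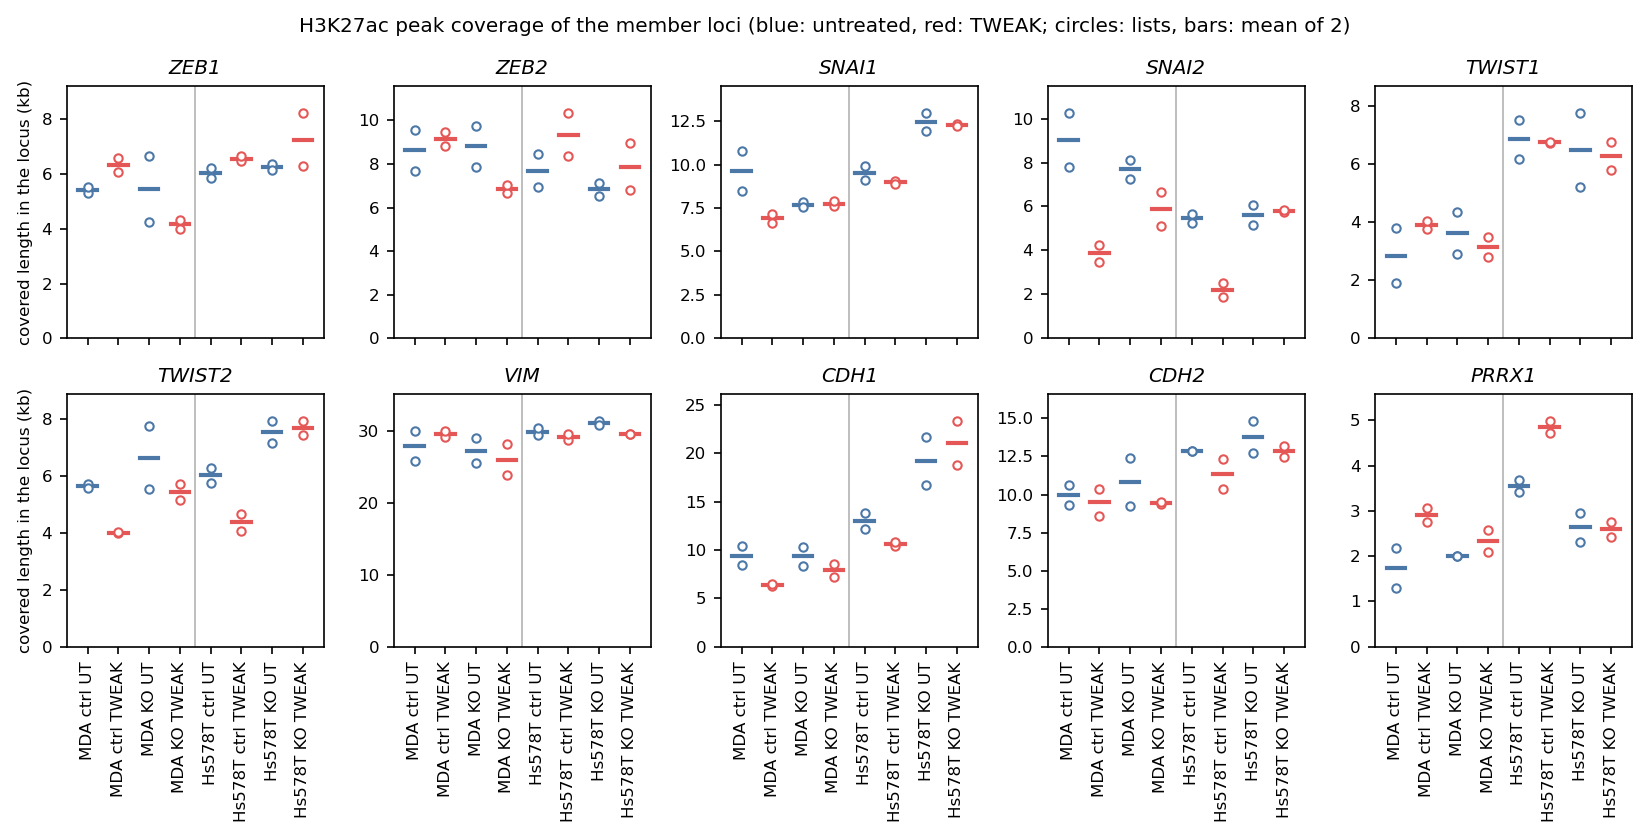
Bases under H3K27ac peaks (kb, linear axis from 0) in each locus, meaning the gene body extended by 50 kb on each side, for the 8 groups of line, genotype (ctrl, CRISPR control; KO, Fn14 KO) and treatment (UT, untreated); circles are peak lists and bars the mean of 2. In control cells the treated circles of SNAI2, SNAI1, TWIST2 and CDH1 lie below the untreated ones and those of PRRX1 above, in both lines.

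The other 5 loci had the following values. VIM, the gene of the intermediate filament protein vimentin (chr10:17228241-17237593), had the longest coverage of the set, 23.9 to 31.4 kb over the 16 lists with single peaks of up to 13.9 kb, and a change of 0.02 ± 0.07 (adjusted p = 0.86, limma). CDH2, the gene of N-cadherin (chr18:27932879-28177946), held 8.59 to 14.8 kb with a change of −0.13 ± 0.10 (adjusted p = 0.44). ZEB1 (chr10:31318495-31529814) held 4001 to 8222 bp with 0.16 ± 0.12 (adjusted p = 0.41), and ZEB2 (chr2:144364364-144521057) held 6.55 to 10.3 kb with 0.18 ± 0.11 (adjusted p = 0.33). TWIST1 (chr7:19020991-19117636, a gene model that spans 96.6 kb in this annotation) held 1.91 to 7.76 kb with 0.22 ± 0.18 (adjusted p = 0.44). None of the 10 genes differed in TWEAK effect between the lines (0.0893% of genes did), at adjusted p = 1 for each, and this does not show that the lines responded alike.

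Covered length can stay level while single regions become stronger, so the fold enrichment was also compared in each consensus region (peaks of all lists merged, present in at least 2 lists). Of 67 consensus regions in the 10 loci, 30 had a peak in every list (44.8%, against 51.3% of all 55219 regions). Among the 28337 regions present in every list, 42.1% changed with TWEAK in control cells (26% higher, 16.1% lower), as did 11 of the 30 regions here, 7 higher and 4 lower. The median change was 0.01 over the 30 regions and 0.06 over all regions.

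The region with the largest change lay in the ZEB2 locus, 161 kb from the start site at chr2:144357383-144360028, between the 3′ end of ZEB2 and the start of GTDC1. Its highest fold enrichment was 5.32 and 6.30 in untreated and 14.2 and 14.7 in TWEAK-treated control lists of MDA-MB-231. In Hs578T control lists it was 4.86 and 3.95 untreated and 9.01 and 9.05 after TWEAK. In Fn14 KO cells it was 4.83 and 4.95 untreated and 5.49 and 4.53 after TWEAK in MDA-MB-231, and 4.58 and 3.35 against 4.23 and 4.33 in Hs578T. Only the 4 treated control lists stood apart, and the change in control cells was 1.18 ± 0.12 on the log2 scale (adjusted p = 3.5e-13, limma), although the covered length of the whole locus did not pass the test.

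To show the DNA behind these distant signals, 300 bases around the middle of the strongest peak (hg38, plus strand) are given for the ZEB2 region and for 3 other distant regions that rose with TWEAK in control cells, in ZEB1 (chr10:31426204-31426503), TWIST2 (chr2:238948695-238948994) and PRRX1 (chr1:170708133-170708432), the ZEB2 window being chr2:144358599-144358898. Capitals mark matches on either strand to the following motifs. The first are an AP-1-like motif, TGANTCA (N, any base), called AP-1 below, and the E-box CACCTG bound by ZEB and SNAI factors. The others are a kappaB-like motif of GGG and CC 5 bases apart and the TEAD motif GGAATG.
ZEB1 region: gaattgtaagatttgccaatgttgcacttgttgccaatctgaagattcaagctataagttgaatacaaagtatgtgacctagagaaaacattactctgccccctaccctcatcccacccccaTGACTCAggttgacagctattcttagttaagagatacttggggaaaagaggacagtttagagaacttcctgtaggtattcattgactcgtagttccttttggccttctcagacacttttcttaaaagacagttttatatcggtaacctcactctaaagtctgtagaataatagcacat
ZEB2 region: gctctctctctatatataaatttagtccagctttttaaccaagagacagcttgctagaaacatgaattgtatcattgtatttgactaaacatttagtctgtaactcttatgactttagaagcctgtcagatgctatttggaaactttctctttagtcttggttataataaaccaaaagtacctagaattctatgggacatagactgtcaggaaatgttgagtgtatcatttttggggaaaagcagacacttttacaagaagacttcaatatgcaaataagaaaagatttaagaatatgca
TWIST2 region: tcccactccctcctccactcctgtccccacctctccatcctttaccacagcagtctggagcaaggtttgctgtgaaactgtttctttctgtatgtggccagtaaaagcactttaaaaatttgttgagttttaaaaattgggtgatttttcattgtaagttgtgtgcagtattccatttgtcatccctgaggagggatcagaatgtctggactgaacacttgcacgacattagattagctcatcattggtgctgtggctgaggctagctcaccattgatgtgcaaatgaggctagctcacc
PRRX1 region: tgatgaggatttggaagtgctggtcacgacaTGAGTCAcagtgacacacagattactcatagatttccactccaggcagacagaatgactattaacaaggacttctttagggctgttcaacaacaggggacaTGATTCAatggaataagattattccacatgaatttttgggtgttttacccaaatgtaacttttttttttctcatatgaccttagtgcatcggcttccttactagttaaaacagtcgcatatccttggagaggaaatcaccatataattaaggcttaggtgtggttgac

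The ZEB1 window held 1 AP-1 match, the PRRX1 window held 2 (TGAGTCA and TGATTCA), and the ZEB2 and TWIST2 windows held none of the 4 motifs. Over all 55219 consensus regions, windows of this length held AP-1 in 25.54%, the E-box in 20.03%, kappaB in 41.61% and TEAD in 19.19%. Over the 67 regions of the 10 loci the shares were 26.87%, 23.88%, 34.33% and 22.39%. A match describes the letters and is not evidence of a bound factor.

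The intronic ZEB1 region, 107 kb from the start site (chr10:31425687-31427562), went from 3.36 and 4.12 to 6.05 and 6.62 fold in MDA-MB-231 control cells and from 4.47 and 3.85 to 5.60 and 5.44 fold in Hs578T control cells, a change of 0.59 ± 0.12 (adjusted p = 3.7e-05, limma). The intergenic TWIST2 region, 100.4 kb from the start site (chr2:238945981-238951028), went from 13.5 and 14.0 to 17.9 and 18.4 fold in MDA-MB-231 and from 11.1 and 11.8 to 14.7 and 16.4 fold in Hs578T control cells (0.42 ± 0.10, adjusted p = 2.2e-04). It thus became stronger while the TWIST2 locus as a whole lost covered length. The intronic PRRX1 region, 44.2 kb from the start site (chr1:170707293-170709439), went from 6.42 and 7.12 to 10.2 and 9.57 fold in MDA-MB-231 and from 8.86 and 9.08 to 11.4 and 11.8 fold in Hs578T control cells (0.46 ± 0.11, adjusted p = 5.1e-04). Treated and untreated lists did not overlap in either line at any of these 3 regions.

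At CDH2, a region upstream of the gene, 27.3 kb from the start site (chr18:28203347-28205452), rose from 9.15 and 9.56 to 15.6 and 12.02 fold in MDA-MB-231 control cells and from 10.2 and 8.96 to 15.0 and 15.8 fold in Hs578T control cells (0.62 ± 0.11, adjusted p = 1.2e-06, limma). An intronic CDH2 region also rose (0.36 ± 0.12, adjusted p = 0.013, and 0.051 after division by the median of each list), and one beyond the 3′ end of CDH2, within a lncRNA, fell (−0.42 ± 0.11, adjusted p = 7.7e-04). A TWIST1 region 107 kb from the start site (chr7:19008622-19012096) went from 3.01 and 3.17 to 4.35 and 4.50 fold in MDA-MB-231 and from 5.67 and 5.15 to 7.83 and 9.60 fold in Hs578T control cells (0.60 ± 0.12, adjusted p = 3.2e-05). At SNAI1 the direction was the opposite: a region 46.3 kb from the start site (chr20:50027512-50031062) fell from 6.88 and 5.49 to 3.55 and 4.27 fold in MDA-MB-231 and from 4.46 and 4.88 to 3.69 and 2.69 fold in Hs578T control cells (−0.61 ± 0.12, adjusted p = 3.4e-05). Its neighbour 51.3 kb from the start site fell as well (−0.27 ± 0.10, adjusted p = 0.028), as did a region at TRDMT1 in the VIM window (−0.26 ± 0.09, adjusted p = 0.020); these 2 calls were lost without 1 of 5 and 1 of 4 control lists, at adjusted p = 0.069 to 0.13 and 0.070 to 0.11.

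The highest fold enrichment of any peak in the locus was compared as well. It rose with TWEAK in control cells at PRRX1 (0.46), TWIST2 (0.42) and ZEB2 (0.30) and fell at SNAI2 (−0.31) and SNAI1 (−0.27), while 35.3% of 16733 loci were called (27.4% higher, 7.86% lower; limma). The highest peak was not always the same one. At ZEB2 the region with the largest change held it in the treated MDA-MB-231 control lists (14.2 and 14.7 fold). Other peaks held it in the untreated ones (9.91 and 10.3 fold) and in the Hs578T control lists. At SNAI2 the start-site peak held it in 1 untreated Hs578T control list (5.67 fold) and a distant peak in the other (9.42 fold). The PRRX1 and TWIST2 calls remained under every alternative run, and those of the other 3 genes did not. ZEB2, whose treated and untreated Hs578T lists overlapped, was not called after division by the median of each list (0.22, adjusted p = 0.077), with the highest −log10 q in place of the fold (adjusted p = 0.11), or without 1 of 3 control lists (the second treated list of MDA-MB-231 and both second lists of Hs578T, adjusted p = 0.068 to 0.094). SNAI1 was not called with the highest −log10 q (adjusted p = 0.056) or without 1 of 5 control lists (all but the first untreated MDA-MB-231, the first untreated Hs578T and the second treated Hs578T list, adjusted p = 0.076 to 0.14). SNAI2, whose Hs578T lists also overlapped, was not called without 1 of 6 control lists (all but the first treated MDA-MB-231 and the second untreated Hs578T list, adjusted p = 0.051 to 0.44), and its value was −0.13 without the first untreated Hs578T control list. This change differed between genotypes at ZEB2, TWIST2 and PRRX1 (24.5% of loci called), and at ZEB2 not after division by the median (−0.30, adjusted p = 0.12).

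**Figure D3:**
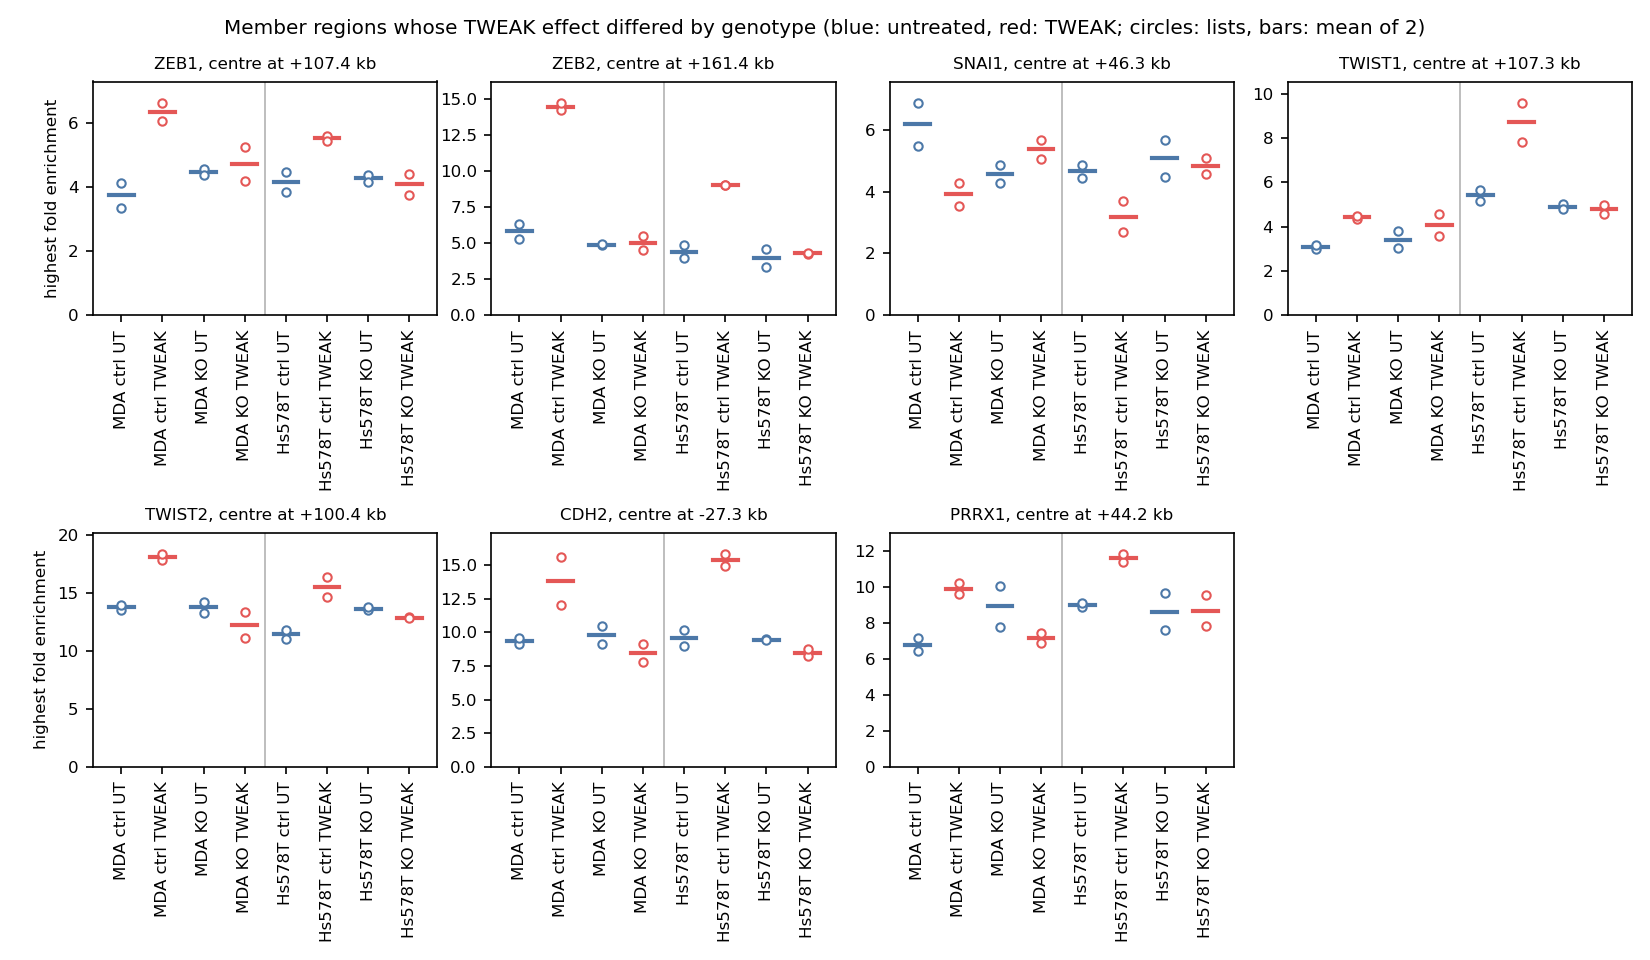
Highest fold enrichment over input (linear axis from 0) in the 7 regions whose TWEAK effect differed between control and Fn14 KO cells, each titled by gene and by the distance of its centre from the start site; circles are peak lists and bars the mean of 2 (ctrl, CRISPR control; UT, untreated). In control cells 6 regions were higher after TWEAK and the SNAI1 region lower, in both lines.

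Some regions were present in both lists of one treatment and neither list of the other. In MDA-MB-231 control cells TWEAK added 3 of the 67 regions and removed 8 (5.58% and 4.49% of all consensus regions), and in Hs578T control cells 1 was gained and 7 were lost (5.09% and 4.65%). Together these were 17 different regions in 7 of the 10 loci, 4 gained and 13 lost, and 2 were lost in both lines, the SNAI2 and CDH1 regions described above. None lay within 2 kb of the start site of any of the 10 genes, and all were weak, with a mean fold enrichment of 2.81 to 4.23 in the lists that had them.

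The 2 gained PRRX1 regions lay upstream in an intron of the lncRNA ENSG00000235303. The first, at chr1:170613831-170614704, was gained in Hs578T control cells, with 3.63 and 3.26 fold after TWEAK, and was in no other list. The second, at chr1:170622702-170623812, was gained in control lists of MDA-MB-231 with 2.80 and 3.27 fold, but was already present in untreated Hs578T control cells at 4.07 and 3.80 fold and reached 5.75 and 6.07 fold there after TWEAK. Its sequence (chr1:170623101-170623400, plus strand) is given because it held 2 AP-1 matches, in capitals.
PRRX1 upstream region: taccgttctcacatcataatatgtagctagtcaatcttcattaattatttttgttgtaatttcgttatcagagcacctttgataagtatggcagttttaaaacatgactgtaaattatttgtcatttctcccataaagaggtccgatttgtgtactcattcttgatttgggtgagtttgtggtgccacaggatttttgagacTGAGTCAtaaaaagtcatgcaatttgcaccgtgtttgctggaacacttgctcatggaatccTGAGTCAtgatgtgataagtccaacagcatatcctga

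The remaining regions that were singly gained or lost were as follows. A ZEB2 region at chr2:144365083-144365488 was gained in MDA-MB-231. The regions lost in MDA-MB-231 included SNAI2 chr8:48949053-48950246 and TWIST1 chr7:19078756-19079839. Those lost in Hs578T included CDH2 chr18:27942391-27943462 and TWIST2 chr2:238867018-238868025. CDH2 chr18:28065114-28066104 and SNAI2 chr8:48891300-48892135 were each lost in 1 line, and the 5 weakest regions of the 17 lay in the ZEB2, SNAI2, CDH1 and TWIST1 loci.

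**Figure D4:**
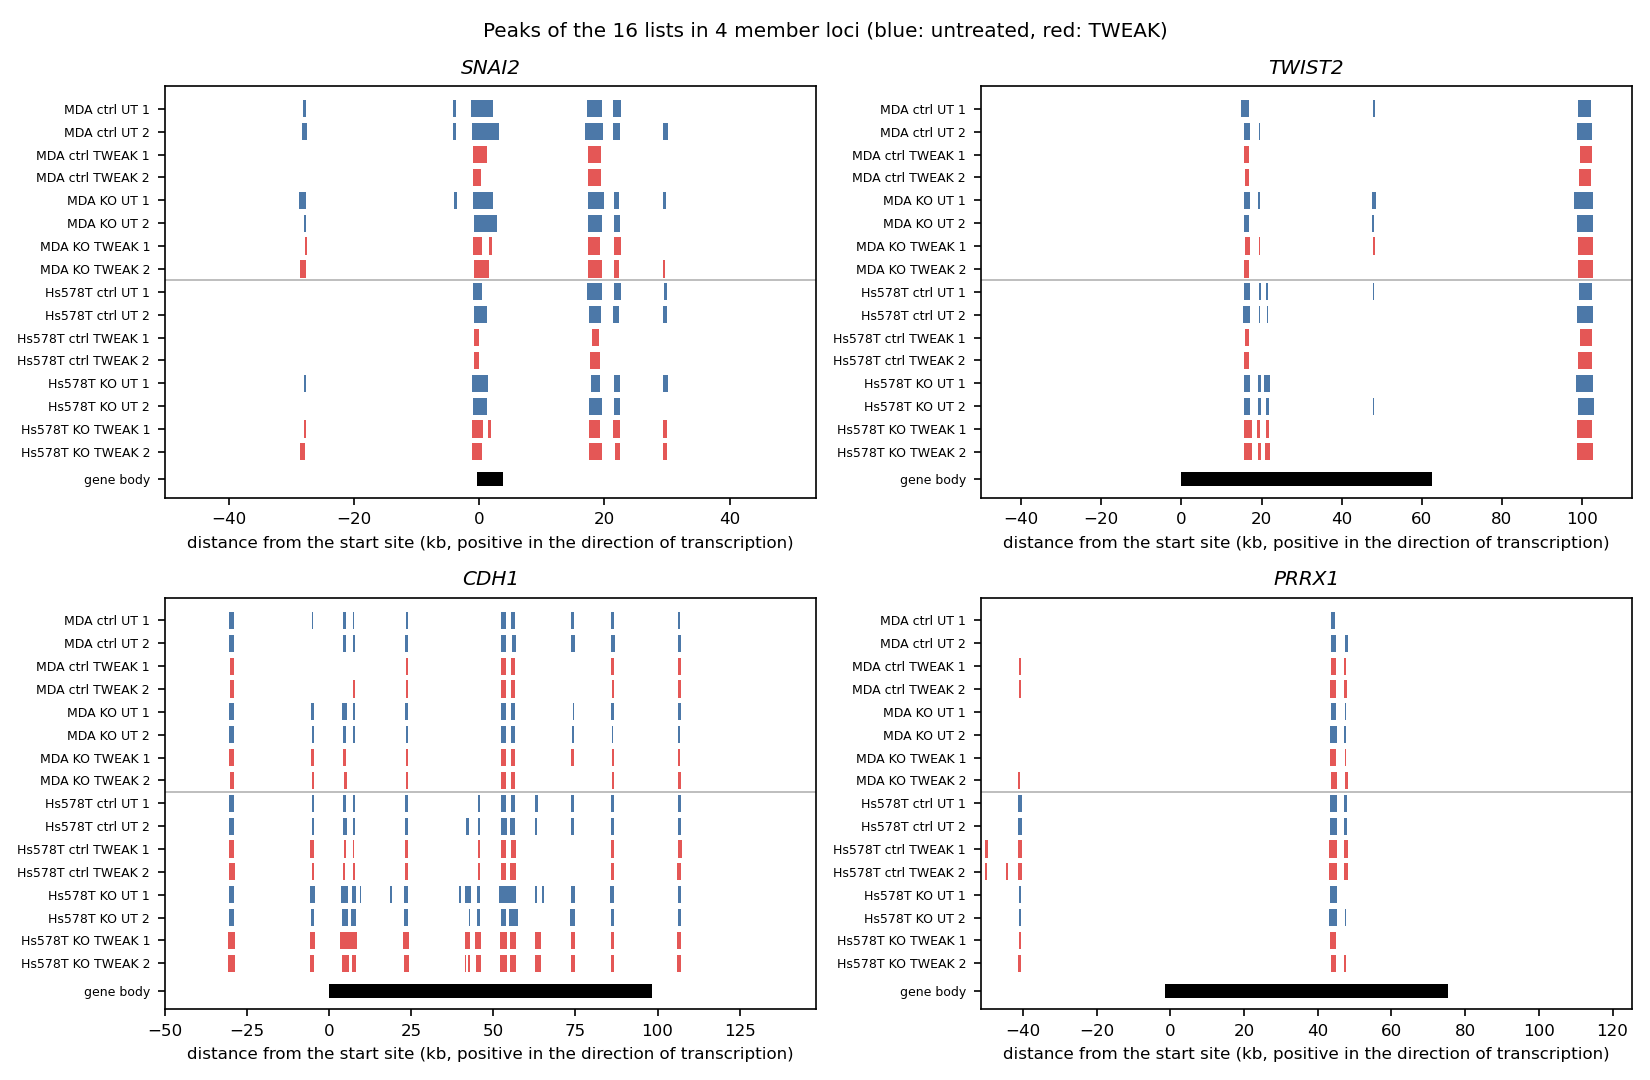
H3K27ac peaks (bars, to scale) of the 16 lists around SNAI2, TWIST2, CDH1 and PRRX1, against the distance from the start site in kb, positive in the direction of transcription; black marks the gene body. The SNAI2 peak at 22.0 kb and the CDH1 peak at 74.1 kb are missing from the 4 treated control lists, and no peak covers the start site of TWIST2, CDH1 or PRRX1.

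To ask whether these changes needed the receptor, the same comparison was made in Fn14 KO cells. None of the 10 loci passed the test, at changes of −0.16 to 0.08, and 0% of all genes did (limma, 0 of 17908; 320 genes and none of the 10 at an unadjusted p under 0.05). None of the 67 regions was gained or lost with TWEAK in KO cells of either line, where the shares over all regions were 0.321% and 1.35% in MDA-MB-231 and 1.05% and 0.829% in Hs578T. In the fold enrichment of shared regions 0% of 28337 were called (880 regions, 1 of them in these loci, at an unadjusted p under 0.05). The untreated KO lists of MDA-MB-231 covered 81.2 and 64.2 Mb, and such a spread within a group makes a call harder. The lack of calls thus does not show that TWEAK had no effect in KO cells.

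The difference in TWEAK effect between genotypes was tested directly. At the level of the locus it was called for SNAI2 alone of the 10 genes, where 4.79% of genes were called. The SNAI2 locus in KO cells held 8136 and 7268 bp untreated and 5124 and 6666 bp after TWEAK in MDA-MB-231, and 6048 and 5177 bp against 5747 and 5831 bp in Hs578T. Treated lists were below the untreated ones in MDA-MB-231 KO cells (−0.37, adjusted p = 1, limma) and lay between them in Hs578T KO cells (0.04, adjusted p = 1). The difference of the effects (KO minus control) was 0.97 ± 0.17 (adjusted p = 0.0056, limma). A 2-sided exact permutation test gave p = 0.049, unadjusted, with 0.0015 the smallest p it allows. It exchanged treatment labels within line and genotype. Its null is thus no TWEAK effect in any cells, and it cannot test the difference between genotypes by itself. With the gene body extended by 10 kb the difference was 0.46 (adjusted p = 0.31). For the other 9 genes the adjusted p was 0.20 to 0.99, so a different effect of TWEAK was not shown for TWIST2 (0.32), CDH1 (0.35), SNAI1 (0.25) or PRRX1 (−0.44). Leaving out 1 list brought TWIST2 past the threshold (0.44, adjusted p = 0.026, without the first untreated KO list of MDA-MB-231), and likewise PRRX1 (−0.58, adjusted p = 0.047, without the second untreated control list of MDA-MB-231).

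Single regions were tested in the same way. The TWEAK effect on fold enrichment differed between genotypes in 7 of the 30 regions, against 28.6% of all regions (8.47% higher, 20.1% lower). The difference (KO minus control) was −1.10 ± 0.17 for the ZEB2 region (adjusted p = 3.9e-07, limma), −0.81 ± 0.15 for the upstream CDH2 region (adjusted p = 1.4e-05), −0.60 ± 0.16 for the PRRX1 region (adjusted p = 0.0020), −0.59 ± 0.17 for the ZEB1 region (adjusted p = 0.0054) and −0.55 ± 0.14 for the TWIST2 region (adjusted p = 0.0011). For the SNAI1 region, which fell in control cells, it was 0.70 ± 0.18 (adjusted p = 0.0014). For the TWIST1 region it was −0.49 ± 0.17 (adjusted p = 0.022), a call that was lost when fold enrichment was divided by the median of each list (adjusted p = 0.059) and without 1 of 4 lists (the first untreated and first treated KO lists of MDA-MB-231, the second treated control list and first treated KO list of Hs578T, adjusted p = 0.054 to 0.091). The lower median −log10 q of the MDA-MB-231 KO lists moves with genotype in that line, and its part in these differences was not tested.

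**Figure D5:**
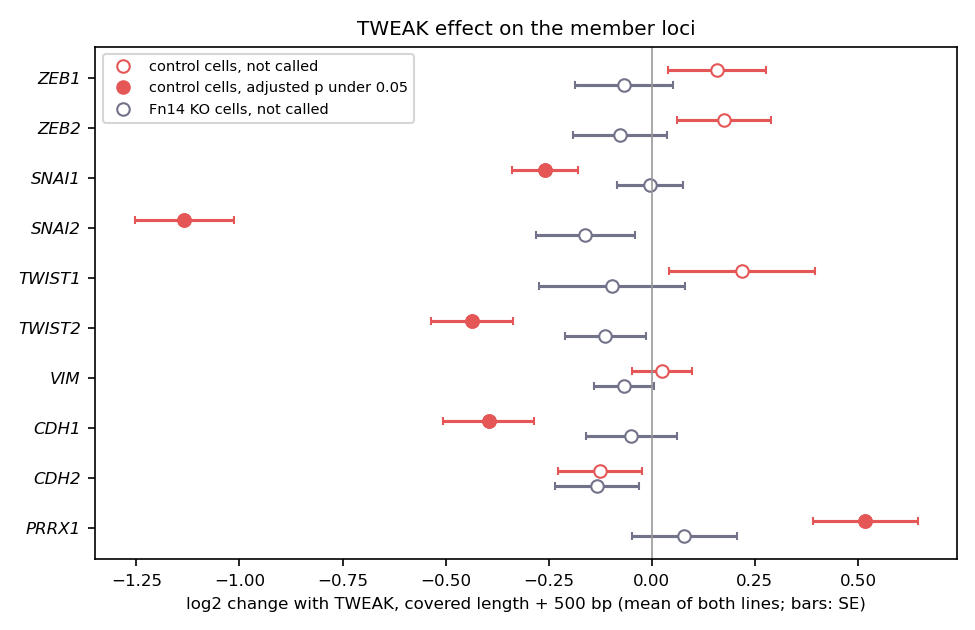
Change with TWEAK in covered length plus 500 bp (log2, mean of both lines, bars SE from limma) for each locus in control cells (red, filled where the adjusted p was under 0.05) and Fn14 KO cells (grey). In control cells SNAI2 lies at −1.13 and PRRX1 at 0.52, and in KO cells the 10 loci lie between −0.16 and 0.08.

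Fn14 KO cells were next compared with control cells. Without TWEAK, none of the 10 loci differed over both lines (0.514% of genes did; 2 of the 10 at an unadjusted p under 0.05). Over both treatments, 5 of the 10 loci differed in Hs578T, where 10.3% of genes did (7.43% higher, 2.89% lower), and none in MDA-MB-231, where 10.3% did. This comparison of each line was chosen after the data were seen. Hs578T KO lists covered 87.2 to 88.9 Mb and Hs578T control lists 77.8 to 86.6 Mb. Scaling each list to the mean total brought the Hs578T median from 0.07 to −0.0023 over all genes. Over the 10 genes it went from 0.11 to 0.03. At an unadjusted p under 0.05 (limma), 5 of the 10 loci differed before scaling and 6 after. The part of the larger coverage in the calls was not tested.

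In fold enrichment, MDA-MB-231 KO lists were lower over most of the genome, with 55.8% of loci called in untreated cells. The ZEB1 start-site peak, the strongest of its locus, had 25.7 and 27.5 fold in the untreated control lists of MDA-MB-231 and 18.9 and 15.8 fold in its untreated KO lists, whereas in Hs578T it had 19.3 and 21.4 fold in control lists and 20.0 and 20.3 fold in KO lists. The difference in KO effect between the lines was called for ZEB1 (0.61), VIM (0.64) and CDH2 (0.55), where 41.8% of loci were called and the median over all loci was 0.40 (limma). After division by the median of each list that median was 0.24, and these genes were not called (0.45, 0.48 and 0.39, adjusted p = 0.053, 0.075 and 0.15), while PRRX1 was (−0.62, adjusted p = 0.042). The lower −log10 q of the MDA-MB-231 KO lists moved with these values, and its part in them was not tested.

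CDH1 showed the clearest separation in Hs578T. Its locus held 12179, 13802, 10451 and 10834 bp in the 4 control lists and 21659, 16694, 23306 and 18766 bp in the 4 KO lists, with no overlap, a change of 0.74 ± 0.11 (adjusted p = 0.0018, limma). The added length included a region 5.92 kb from the start site (chr16:68740559-68745868), with a fold enrichment of 3.79, 4.80, 3.19 and 3.49 in the control lists and 7.75, 4.98, 6.68 and 5.91 in the KO lists. In MDA-MB-231 the CDH1 locus held 6277 to 10382 bp in control lists and 7244 to 10363 bp in KO lists, and the ranges overlapped (0.14, adjusted p = 0.47). A difference between the lines in this KO effect was tested in untreated cells alone and was not called (0.54, adjusted p = 0.36; 0.564% of genes).

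The other calls in Hs578T were SNAI2 (0.63, adjusted p = 0.0064), TWIST2 (0.53, adjusted p = 0.0060) and SNAI1 (0.40, adjusted p = 0.0081), all higher in KO cells, and PRRX1 (−0.59, adjusted p = 0.013), lower. SNAI1 held 8874 to 9889 bp in the control lists and 11956 to 12964 bp in the KO lists, and PRRX1 held 3428 to 4977 bp in the control lists and 2311 to 2957 bp in the KO lists, neither pair overlapping. The SNAI2 call lay with the treated lists: after TWEAK the SNAI2 difference was 1.23 (adjusted p = 6.8e-04, 13.1% of genes called) and without TWEAK it was 0.03 (adjusted p = 1, 0.223% of genes called). The other calls also average both treatments, so a TWEAK effect that differs by genotype would enter them. Mean covered length in Hs578T control and KO lists was 6.03 and 7.55 kb untreated and 4.37 and 7.69 kb after TWEAK at TWIST2. At PRRX1 the means were 3.55 and 2.63 kb untreated and 4.85 and 2.59 kb after TWEAK. At CDH1 they were 13.0 and 19.2 kb, then 10.6 and 21.0 kb, and at SNAI1 9.50 and 12.5 kb, then 8.97 and 12.3 kb. The KO and the history of the clones that carry it cannot be told apart.

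Hs578T and MDA-MB-231 were also compared over all conditions. Of the 10 loci, 8 differed in covered length, beside 50% of all genes (46.6% higher and 3.4% lower in Hs578T). The median change was 0.31 for the 10 genes and 0.18 for all genes, and scaling each list to the mean total covered length brought the latter to −0.03. TWIST1 held 1906 to 4356 bp in the 8 MDA-MB-231 lists and 5224 to 7761 bp in the 8 Hs578T lists, without overlap (0.89 ± 0.13, adjusted p = 1.2e-04, limma). CDH1 held 6277 to 10382 bp and 10451 to 23306 bp, also without overlap (0.87 ± 0.08, adjusted p = 3.7e-06). An exact permutation test gave p = 0.0015 for each of them, the smallest it allows. The units of both tests are lists and not lines, so these p-values describe Hs578T and MDA-MB-231 alone.

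SNAI2 went the other way, at −0.45 ± 0.09 in Hs578T against MDA-MB-231 (adjusted p = 9.4e-04, limma), and −0.48 ± 0.11 at its start site (adjusted p = 0.017, 15.7% of genes called). The peak 18.4 kb from its start site had a fold enrichment of 15.5, 15.8, 13.2 and 12.4 in MDA-MB-231 control cells, 9.71, 8.41, 9.05 and 7.01 in MDA-MB-231 KO cells and 5.02 to 9.42 in Hs578T (−0.89 ± 0.09, adjusted p = 5.2e-14), where 54.2% of all regions differed between the lines. PRRX1 (0.49), SNAI1 (0.41), CDH2 (0.34), ZEB1 (0.28) and TWIST2 (0.21) were higher in Hs578T. Under scaling to the mean total, ZEB1 (0.07) and CDH2 (0.12) were no longer called, TWIST2 was at −0.005, VIM turned from 0.11, not called, to −0.12, called, and ZEB2 went from −0.07, not called, to −0.29, called. TWIST2 also missed the threshold without 1 of 5 lists (adjusted p = 0.053 to 0.063). ZEB1 missed it with lists trimmed to the same number of peaks (0.14, adjusted p = 0.18) and with only peaks of −log10 q of at least 2 (0.26, adjusted p = 0.068), and PRRX1 with the gene body extended by 10 kb (0.18, adjusted p = 0.14).

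In presence of peaks, an intronic CDH1 region 45.3 kb from the start site (chr16:68781654-68783595) was found in all 8 Hs578T lists and no MDA-MB-231 list, as were 0.328% of all consensus regions. Another CDH1 region, 54.7 kb from the start site (chr16:68788984-68794904), had 5.53 to 8.48 fold in MDA-MB-231 and 8.37 to 13.3 fold in Hs578T (0.65 ± 0.08, adjusted p = 8.3e-11, limma). CDH1 held the most regions of the 10 loci, 11 of the 67, and had no peak at its start site in either line.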

How the data were processed

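H3K27ac ChIP-seq was performed in 16 samples. According to the study's methods, the authors checked reads with FastQC, trimmed adaptors with Trimmomatic, mapped reads to hg38 with Bowtie2, called peaks in each sample with MACS2 against input and removed blacklisted regions with bedtools (versions not given in the sources used here). The deposited broad peak lists give for each peak a score (not used), a fold enrichment over input, and −log10 p and −log10 q values as the authors' caller wrote them. Read counts were not analysed here, so depth is unknown, and list length and fold enrichment may move with it.

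Bases under peaks were summed per GENCODE 44 protein-coding gene, in the gene body extended by 50 kb and within 2 kb of the canonical start site, in Python 3.11.15 (numpy 2.4.6, pandas 2.3.3). Log2(covered bp + 500) of genes with a peak in at least 2 lists, and log2 of the highest fold enrichment of loci or regions with a peak in all 16 lists, were fitted as 8 group means with limma 3.58.1 (R 4.3.3), with Benjamini-Hochberg adjustment and a threshold of 0.05. The scripts were tested on simulated data. Exact permutation was run, unadjusted, on the locus covered length of the 10 genes alone. It covered the difference between the lines. It was also run on the genotype difference in TWEAK effect, where its null was no TWEAK effect in any cells. All 10 genes are named in the comparisons, regions by the strength of their peaks (12 with coordinates), and at most 5 other EMT genes per comparison. The 10 genes and the lists were chosen with earlier results of these data known. The tests of fold enrichment per region and of Fn14 KO in each line, and the crossed pairing, were chosen after seeing the data.

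Replicate numbers did not pair the lists: same-numbered lists correlated at −0.19 to 0.094 in their deviations from group means. Alternatives were another scaling, list length, q threshold, added length, gene filter, window, start-site definition and overlap, a replicate block, and leaving out each list.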

Additional observations from a re-analysis of the deposited data

Results flagged for a closer look

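In 14 results the effect of one factor differed between groups by a test of the difference itself (limma, adjusted p under 0.05). In covered length, the TWEAK effect at SNAI2 differed between Fn14 KO and control cells by 0.97 (log2), where 4.79% of all genes were called.

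In fold enrichment per region, the TWEAK effect in KO minus that in control cells was −0.59 for the ZEB1 region, −1.10 for the ZEB2 region, 0.70 for the SNAI1 region, −0.49 for the TWIST1 region, −0.55 for the TWIST2 region, −0.81 for the CDH2 region and −0.60 for the PRRX1 region. These were 7 of the 30 regions tested here, beside 28.6% of all 28337 regions. In the highest fold enrichment of the whole locus the difference was −0.38 for ZEB2, −0.55 for TWIST2 and −0.60 for PRRX1, where 24.5% of loci were called. The ZEB2 value was −0.30 (adjusted p = 0.12, limma) after division by the median of each list. The TWIST2 and PRRX1 values come from the same peaks as their regions, whereas the ZEB2 value compares different peaks of its locus.

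The effect of Fn14 KO in untreated cells on the highest fold enrichment of the locus differed between the lines (Hs578T minus MDA-MB-231) by 0.61 for ZEB1, 0.64 for VIM and 0.55 for CDH2, where 41.8% of loci were called and the median over all loci was 0.40. In MDA-MB-231 the KO values were lower by −0.62 for ZEB1, −0.62 for VIM and −0.42 for CDH2, beside a median of −0.35 over all loci. In Hs578T they were −0.01, 0.01 and 0.13. After division by the median of each list the differences were 0.45, 0.48 and 0.39, none of them called (adjusted p = 0.053, 0.075 and 0.15, limma), beside a median of 0.24. The MDA-MB-231 KO lists also had the lowest median −log10 q, 5.79 to 7.69, and the part of this in the 3 results was not tested.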

How the results depend on the processing

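Changes of setting moved some counts among the 10 genes. For the TWEAK effect in control cells 5 loci became 3 with the gene body extended by 10 kb and 4 with the replicate block, which ended the SNAI1 call (adjusted p = 0.068); the block changed no other call of the loci, and same-numbered lists correlated at −0.19 to 0.094. For the difference between genotypes, 1 became 0 with the 10 kb extension. The start-site difference between lines went from 1 gene to 3 with scaling to the mean total and 2 with −log10 q of at least 2, and the start-site TWEAK effect from 1 to 0 with no gene filter. Highest fold enrichment per locus changed with TWEAK in 5 loci, and highest −log10 q in 3. The KO effect went from 0 loci in untreated cells of both lines to 5 in Hs578T over both treatments. Reversed values were TWIST2 at −0.005 and VIM at −0.12 in the line difference of the locus, and VIM at −0.20 at the start site, all under scaling to the mean total. The causes were not tested.

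Leaving out each list in turn gave 2 to 5 loci for the TWEAK effect in control cells (SNAI2 and TWIST2 in all 16 fits), 0 to 0 in KO cells, 1 to 2 for the difference between genotypes, 0 to 0 for that between lines, 0 to 0 for the KO effect, 7 to 9 for the line difference, 1 to 2 and 0 to 2 at start sites for the line and TWEAK comparisons, and 2 to 5 for highest fold enrichment. In fold enrichment per region it gave 9 to 14 and 6 to 8 regions, and the block gave 13 and 7.

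Gained or lost regions numbered 11 in MDA-MB-231 control cells (5 at the stricter q, 12 to 15 without 1 list) and 8 in Hs578T control cells (10 to 12 without 1 list; 1 gained and 7 lost became 5 and 3 with lists trimmed to 39544 peaks, and 3 and 5 at the stricter q). In KO cells, 0 became 3 with an overlap of 50% of the region, 1 when trimmed and 2 at the stricter q in MDA-MB-231 (1 to 5 without 1 list), and 1, 2 and 1 in Hs578T (0 to 5). Over all genes, scaling raised the calls from 3176 to 5287 for TWEAK in control cells, from 858 to 2625 for the genotype difference and from 92 to 611 for the KO effect, which was 206 with trimmed lists, 29 with the block and 291 with numbers crossed in untreated MDA-MB-231 lists (0 of the 10 genes).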

Other observations

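Other EMT genes were measured in the same way. Windows of neighbouring genes can overlap, as those of CDH1 and CDH3 do, so the genes counted are not all independent. Of 22 other epithelial genes, 8 lost covered length with TWEAK in control cells and 0 gained it, and of 27 other mesenchymal genes tested, 8 lost and 1 gained, where 11% of all genes were lower and 6.73% higher (limma). The largest changes were at ID2, an inhibitor of basic helix-loop-helix factors (−2.04 ± 0.20, adjusted p = 2.6e-05), at MMP2, a matrix metalloproteinase (−1.15), at MARVELD3, a tight junction gene (−0.98), at TAGLN (−0.70) and at ACTA2, the gene of smooth muscle actin (0.60). In Fn14 KO cells 0 genes of either list were called (0% of all genes). The difference between genotypes was called for 2 of the 22 epithelial and 3 of the 27 mesenchymal genes, beside 4.79% of all genes. These were ID2 (1.60), MMP2 (1.15), TAGLN (0.68), ELF3 (0.60) and KRT8 (0.40). Between the lines, 14 epithelial genes were higher in Hs578T and 0 lower, and 10 mesenchymal genes were higher and 1 lower, where 46.6% of all genes were higher and 3.4% lower.

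Over the 16 lists, the loci whose covered length followed SNAI2 most closely were those of PRF1 (Pearson r = 0.95) and YKT6 (0.92). For TWIST2 they were PINX1 (0.97) and STX16 (0.95), and for PRRX1 they were MAN2A1 (0.93) and RICTOR (0.91). These coefficients describe lists that share groups and lines and whose read depth is unknown, and they carry no test.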
